A study of Mus musculus with 18 samples.

Results

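The Kcnn genes encode the small- and intermediate-conductance calcium-activated potassium channels, and all 4 mouse members, Kcnn1, Kcnn2, Kcnn3, and Kcnn4, were examined here in whisker pad tissue after facial nerve transection. They are 4 of the 35150 genes for which transcript values could be summed, and they comprise 23 of the 113194 transcripts measured. The family was chosen by its measured values, since Kcnn2 and Kcnn3 moved in opposite directions between the denervated and the sham side. The difference between sides is therefore described for the members and was not tested.

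RNA was sequenced from biopsies of skin and muscle of the rostral whisker pad of 9 adult mice. The facial nerve was cut on the right side (denervated), and on the left side the skin was opened and closed without cutting the nerve (sham). Tissue was taken 1, 3, or 7 days after the lesion, from 3 mice at each day, which gave 18 samples in 6 groups of 3. The sham side is the opposite side of the same mouse, so an effect of the lesion that reached both sides, or of surgery itself, cannot be told apart from the baseline. The strain and genotype of these mice are not given in the sources used here.

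These channels open when intracellular calcium rises, through calmodulin that is bound constantly to the channel, and the potassium current that follows hyperpolarizes the cell. Kcnn1, Kcnn2, and Kcnn3 encode SK1, SK2, and SK3, the apamin-sensitive small-conductance channels, which shape the afterhyperpolarization of neurons. Kcnn4 encodes the intermediate-conductance channel of red blood cells, lymphocytes, and epithelia. Innervated adult skeletal muscle is known to have little apamin-sensitive current, and SK3 is known to appear in muscle that has lost its nerve.

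The promoter windows of Kcnn3, the member with the largest difference between sides, and of Kcnn4, the member with the smallest mean difference over the 9 mice, are shown as context. They lie at the annotated start of each gene, which is not where Kcnn3-202, Kcnn4-204, and Kcnn4-205 begin. Both are from RefSeq on build GRCm38.p6, from 250 bases before to 50 bases after the start of the gene, and are written in the direction of transcription. Capitals mark the letters TATAA in Kcnn3 and an E-box (CANNTG) in Kcnn4.
Kcnn3, chr3:89519914-89520213, plus strand: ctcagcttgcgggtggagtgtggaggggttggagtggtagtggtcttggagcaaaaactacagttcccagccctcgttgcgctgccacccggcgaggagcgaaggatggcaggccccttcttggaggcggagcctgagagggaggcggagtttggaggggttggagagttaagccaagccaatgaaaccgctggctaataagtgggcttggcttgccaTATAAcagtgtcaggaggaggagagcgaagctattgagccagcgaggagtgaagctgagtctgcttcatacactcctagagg
Kcnn4, chr7:24370013-24370312, plus strand: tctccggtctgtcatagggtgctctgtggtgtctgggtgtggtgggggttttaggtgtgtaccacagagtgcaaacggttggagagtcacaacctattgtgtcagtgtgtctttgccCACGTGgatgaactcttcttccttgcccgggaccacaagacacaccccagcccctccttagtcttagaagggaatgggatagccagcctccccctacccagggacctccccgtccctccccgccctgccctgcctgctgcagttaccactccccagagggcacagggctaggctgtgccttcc

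The Kcnn3 window held TATAA once, beginning 32 bases before the start, and no E-box. The Kcnn4 window held 1 E-box, CACGTG, beginning 133 bases before the start, and no TATAA. Among 32851 promoter windows of the same length, 72.3% held at least 1 E-box and 24.9% held TATAA on either strand. The E-box reads as CANNTG on both strands. The absence of these letters says only that they are not in this window.

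The values are TPM (a relative abundance that accounts for transcript length and depth) that the authors normalized between samples. Each sample had an estimated 10600000 to 33200000 reads (median 14700000). At that depth Kcnn1, Kcnn2, and Kcnn4 rested on few reads, with estimated medians per sample of 54, 48, and 37, and Kcnn2 on as few as 7 in 1 sample, while Kcnn3 had a median of 242 and up to 2944. The skeletal muscle content of the biopsies varied: the summed level of 8 muscle markers ran from 4718 TPM in the sham side of day 1 mouse 1 to 28825 TPM, and none of the 8 was at 0 in any sample. That sham sample stood apart from the other day 1 sham samples, which reached 24413 TPM. The 4 keratinocyte markers summed to 4256 to 8642 TPM in sham tissue. A lower level in bulk tissue can come from fewer cells of a type or from less RNA per cell, and these cannot be told apart here.

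On the sham side Kcnn2 was the highest member in 9 of 9 samples. Its sham level was 4.27 ± 1.08 TPM (SD, n = 9) with a range of 1.94 to 5.27. Kcnn1 followed with 2.22 ± 0.765 TPM (SD, n = 9), then Kcnn3 with 1.90 ± 0.832 and Kcnn4 with 1.35 ± 0.491. The ranges of Kcnn1 (1.23 to 3.61), Kcnn3 (0.648 to 3.16), and Kcnn4 (0.707 to 2.07) overlapped, so the order of these 3 is not larger than their spread. All 4 are thus low-level transcripts in whisker pad, with Kcnn2 making up 34.9% to 56.1% of the sham family total.

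On the denervated side the order was different. Kcnn3 was the highest member in all 3 samples of day 3 and all 3 of day 7, where it made up 70.3% to 82.7% of the family total. Kcnn2 had a share of 1.79% to 6.42% at day 3 and 8.90% to 10.8% at day 7. The sum over the family was 8.21 ± 3.05 TPM (SD, n = 3) in sham and 5.04 ± 0.761 in denervated tissue at day 1. It was 9.86 ± 1.35 in sham and 22.6 ± 2.63 in denervated tissue at day 3, and 11.2 ± 1.02 and 21.0 ± 1.91 at day 7. The total of the family was thus lower on the denervated side at day 1 and about 2 times as high there at days 3 and 7, where Kcnn3 made up most of it.

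**Figure D1:**
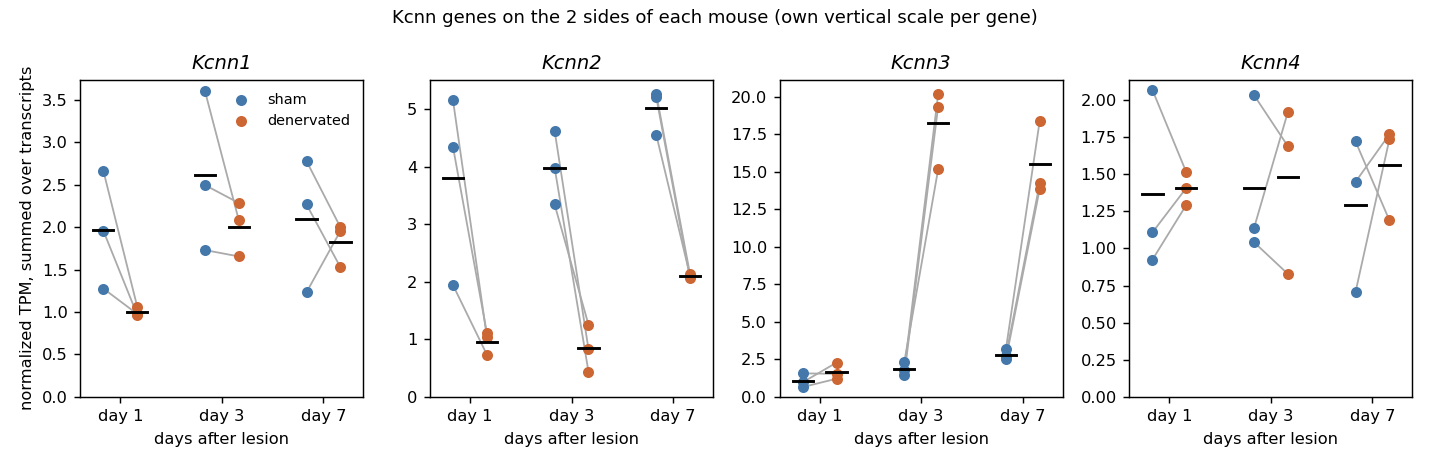
Level of each Kcnn gene in normalized TPM, summed over its transcripts, in sham (blue) and denervated (orange) samples at days 1, 3, and 7. Grey lines join the 2 sides of a mouse and black bars are means of 3. Kcnn2 was below sham in all 9 mice, and Kcnn3 was far above sham in the 6 mice of days 3 and 7.

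Kcnn2 (SK2) was lower on the denervated side at every day. At day 1 the sham values of the 3 mice were 1.94, 5.16, and 4.34 TPM and their denervated values were 0.733, 1.04, and 1.11. At day 3 they were 3.35, 3.99, and 4.63 TPM in sham and 1.26, 0.438, and 0.832 in denervated tissue. At day 7 they were 5.22, 4.56, and 5.27 TPM in sham and 2.06, 2.11, and 2.13 in denervated tissue. The 2 sides did not overlap at any day, and the lowest sham value was that of the muscle-poor sample of day 1.

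The mean within-mouse difference of Kcnn2, denervated minus sham on the log2(TPM + 0.5) scale, was -1.48 ± 0.45 (SD, n = 3) after 1 day, -1.78 ± 0.58 after 3 days, and -1.08 ± 0.11 after 7 days. The ratio of the mean TPM in sham to that in denervated tissue was 3.97, 4.74, and 2.39 at the 3 days. The difference was thus present by the first day sampled, and it was smallest, and most alike between mice, at day 7. At day 7 the denervated mean of 2.10 TPM was above the 0.961 of day 1 and the 0.842 of day 3, and the sham mean was also highest at day 7. After scaling each sample to its muscle markers, the mean differences of Kcnn2 were -1.50, -1.54, and -0.93. The 8 markers themselves differed between sides. At day 3, 3 were lower in every mouse, and at day 7, 3 were lower and 2 higher in every mouse. Scaling to them is therefore not a correction for the amount of muscle alone.

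Kcnn3 (SK3) was higher on the denervated side, from day 3 on in every mouse. At day 1 the sham values were 0.648, 0.966, and 1.56 TPM by mouse and the denervated values 1.21, 2.28, and 1.53. At day 3 they were 2.32, 1.79, and 1.47 TPM in sham and 15.2, 20.2, and 19.4 in denervated tissue. At day 7 they were 3.16, 2.72, and 2.50 TPM in sham and 18.4, 14.2, and 13.9 in denervated tissue. The sides overlapped at day 1, where mouse 3 had nearly equal values, and were far apart at days 3 and 7.

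The within-mouse log2 difference of Kcnn3 was 0.49 ± 0.48 (SD, n = 3) after 1 day, 2.99 ± 0.46 after 3 days, and 2.28 ± 0.09 after 7 days. The ratio of mean TPM, denervated over sham, was 1.58, 9.81, and 5.55. The smaller difference at day 7 than at day 3 had 2 parts, since the denervated mean was 18.2 ± 2.68 TPM at day 3 and 15.5 ± 2.53 at day 7, while the sham mean was 1.86 ± 0.427 and 2.79 ± 0.334. Rescaled to the muscle markers, the log2 differences of Kcnn3 were 0.65, 3.27, and 2.25.

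Kcnn1 (SK1) was lower on the denervated side in 8 of 9 mice, by less than Kcnn2. At day 1 it was 1.28, 1.96, and 2.66 TPM in sham and 0.976, 0.967, and 1.06 in denervated tissue, without overlap. At day 3 it was 2.50, 3.61, and 1.73 TPM in sham and 2.28, 2.08, and 1.65 in denervated tissue. At day 7 it was 2.27, 2.78, and 1.23 TPM in sham and 1.53, 2.00, and 1.95 in denervated tissue. The sides overlapped at days 3 and 7. The log2 difference was -0.68 ± 0.38 (SD, n = 3), -0.27 ± 0.34, and -0.11 ± 0.53 at the 3 days, so that at days 3 and 7 the mean was within 1 SD of 0. Rescaled to the muscle markers, the log2 differences of Kcnn1 were -0.64, -0.02, and -0.03.

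Kcnn4, the intermediate-conductance channel, had no common direction. At day 1 it was 0.923, 1.11, and 2.07 TPM in sham and 1.29, 1.41, and 1.51 in denervated tissue. At day 3 it was 1.04, 2.03, and 1.14 TPM in sham and 0.828, 1.69, and 1.92 in denervated tissue. At day 7 it was 1.72, 0.707, and 1.45 TPM in sham and 1.19, 1.74, and 1.77 in denervated tissue. The sides overlapped at every day, with 5 mice higher and 4 lower on the denervated side. The log2 differences of 0.08 ± 0.37 (SD, n = 3), 0.05 ± 0.45, and 0.24 ± 0.64 were smaller than their spread. Rescaled to the muscle markers, those of Kcnn4 were 0.19, 0.26, and 0.24.

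**Figure D2:**
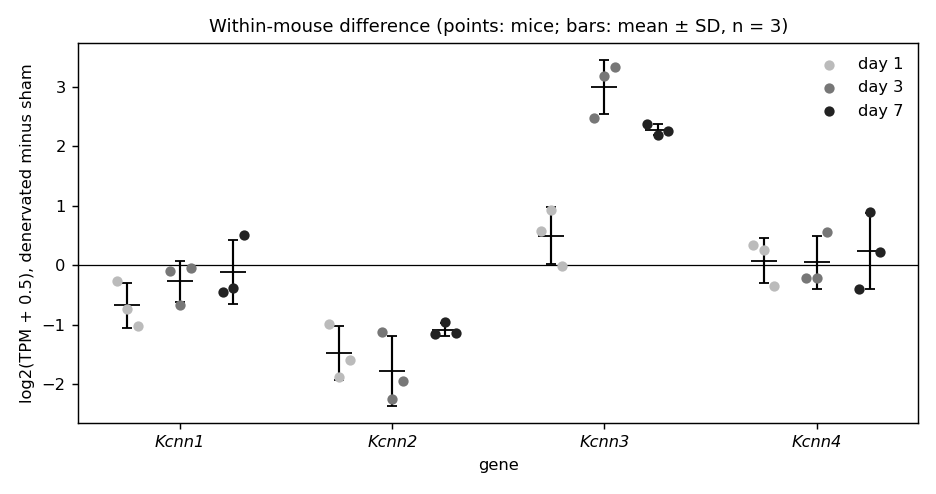
Difference between the denervated and the sham side of each mouse in log2(TPM + 0.5) for the 4 Kcnn genes; points are mice, shaded by day, and bars are the mean ± SD of 3 mice. Kcnn2 lies below 0 in every mouse, Kcnn3 lies between 2.19 and 3.33 in the mice of days 3 and 7, and Kcnn4 scatters around 0.

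Of the members, Kcnn1 at day 1, Kcnn2 at all 3 days, and Kcnn3 at days 3 and 7 had sides that did not overlap. Sides without overlap were found in 9.56% of all tested genes at day 1, while day 3 gave 21.5% and day 7 gave 17.6%. Since this contrast chose the family, nothing is read from its count. In a limma comparison of sides without the mouse as a term, 0% of 14776 genes passed an adjusted p of 0.05 at day 1. Before adjustment 634 genes were under 0.05, which is no more than that threshold gives without any effect. The genes that passed made up 1.45% of 14943 at day 3 and 1.53% of 15081 at day 7.

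The change of the sham levels across days was not what chose the family, so it was tested. The sham values do enter the difference between sides that chose it, so this test is not fully apart from that choice. With limma's F test over the 9 sham samples, no member passed: the adjusted p was 0.809 for Kcnn1, 0.657 for Kcnn2, 0.223 for Kcnn3, and 0.983 for Kcnn4. Of 14671 genes tested 0.0613% passed, which was 9 genes, and 2094 passed before adjustment. Kcnn3 was among these with an unadjusted p of 0.0062 in the limma fit, and its sham level was 0.62 higher at day 3 and 1.12 higher at day 7 than at day 1 on the log2 scale. The sham means of Kcnn3 of 1.06, 1.86, and 2.79 TPM were higher at later days, as were the muscle markers of the same samples. After rescaling to these markers the adjusted limma p was 0.994. Day and marker level went together in these samples, so their parts in the Kcnn3 level cannot be told apart and were not tested.

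Within a side, the members differed in how closely they followed the muscle markers. Over the 9 sham samples the Pearson correlation with the level of the 8 muscle markers was 0.87 for Kcnn3, 0.82 for Kcnn2, 0.52 for Kcnn1, and 0.28 for Kcnn4. Over the 9 denervated samples it was 0.74, 0.69, 0.61, and 0.34 in the same order. These are descriptions over samples that differ in day as well as in muscle content. The muscle marker factor (the level of the markers relative to the other samples) ran from 0.227 to 1.45 in sham tissue at day 1 and from 1.33 to 1.97 in sham tissue at day 7.

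**Figure D3:**
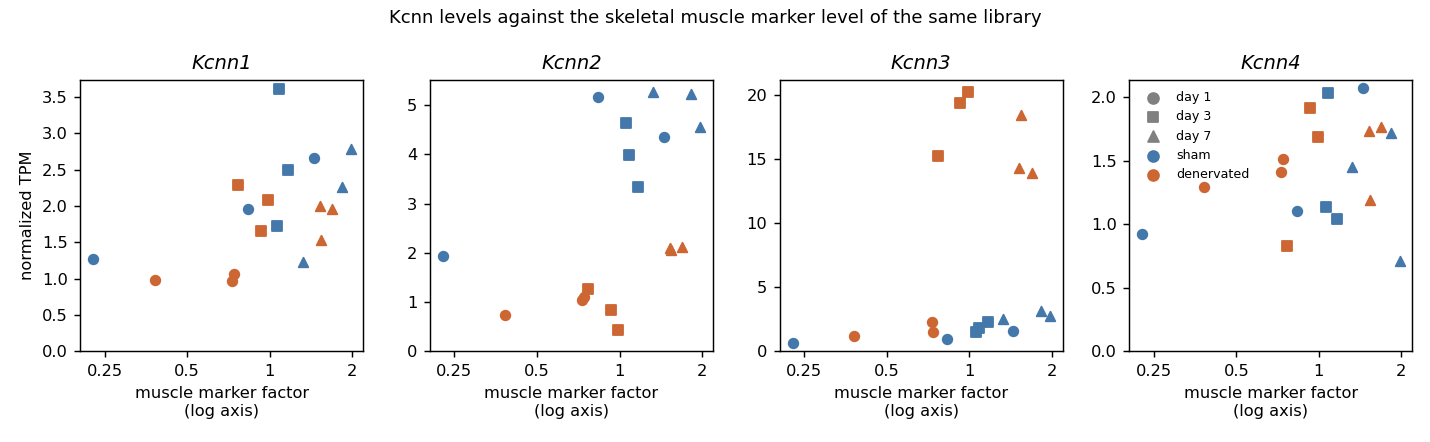
Normalized TPM of each Kcnn gene against the muscle marker factor of the same sample on a log axis, with sham in blue, denervated in orange, and the day given by the symbol. At a like muscle marker factor the denervated samples of days 3 and 7 lie above sham for Kcnn3, and denervated samples lie below sham for Kcnn2.

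Most of the Kcnn3 signal came from a transcript annotated as noncoding. Kcnn3 lies on chromosome 3 of GRCm38 from 89520164 to 89675132 on the plus strand. Its annotation in GENCODE M21 holds Kcnn3-201, a protein-coding transcript of 8 exons, and Kcnn3-202, a retained-intron transcript of 2 exons and 8314 bases at the 3′ end. Kcnn3-202 carried 70.3% to 97.6% of the Kcnn3 TPM across the 18 samples. Of its bases, 747 lie in exons of Kcnn3-201 (364 of them coding), 196 in its introns, and 7371 past its annotated end. The RefSeq annotation of Kcnn3 extends 4733 bases past the end of Kcnn3-201, so that part of what counts as Kcnn3-202 lies within the gene as RefSeq draws it. Whether reads past the end of Kcnn3-201 belong to a long 3′ end of the coding messenger RNA or to a separate transcript cannot be told apart from these values.

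Both Kcnn3 transcripts were higher on the denervated side at days 3 and 7. Kcnn3-201 was 0.300, 0.215, and 0.036 TPM in sham and 2.79, 4.10, and 4.50 in denervated tissue of the day 3 mice. At day 7 it was 0.411, 0.423, and 0.368 TPM in sham and 4.03, 2.32, and 2.35 in denervated tissue. Kcnn3-202 was 2.02, 1.57, and 1.44 TPM in sham and 12.4, 16.1, and 14.9 in denervated tissue at day 3. Neither transcript overlapped between sides at these days. At day 7 Kcnn3-202 was 2.13 to 2.75 TPM in sham and 11.5 to 14.4 in denervated tissue.

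The log2 difference was 2.65 ± 0.59 (SD, n = 3) for Kcnn3-201 and 2.78 ± 0.37 for Kcnn3-202 at day 3, and 1.88 ± 0.38 and 2.18 ± 0.03 at day 7. At day 1 it was 0.30 ± 0.56 and 0.43 ± 0.29, with Kcnn3-202 higher in 3 of 3 mice. Sham Kcnn3-201 did not exceed 0.464 TPM, below the pseudocount of 0.5, so its log2 differences are understated beside those of Kcnn3-202. In TPM, the share of Kcnn3-202 was 87.0% to 97.6% in sham and 76.8% to 81.6% in denervated tissue at day 3. At day 7 it was 84.5% to 87.0% and 78.1% to 83.7%. By TPM, Kcnn3-201 thus rose by the larger factor at both days, from few sham reads. When only protein-coding transcripts were summed, the family total was 6.80 ± 0.652 TPM (SD, n = 3) in sham and 7.17 ± 0.643 in denervated tissue at day 3, and 7.89 ± 0.674 and 7.30 ± 0.887 at day 7. On that count the larger total on the denervated side was not seen, although Kcnn3 was still the highest member in all 6 denervated samples of days 3 and 7.

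**Figure D4:**
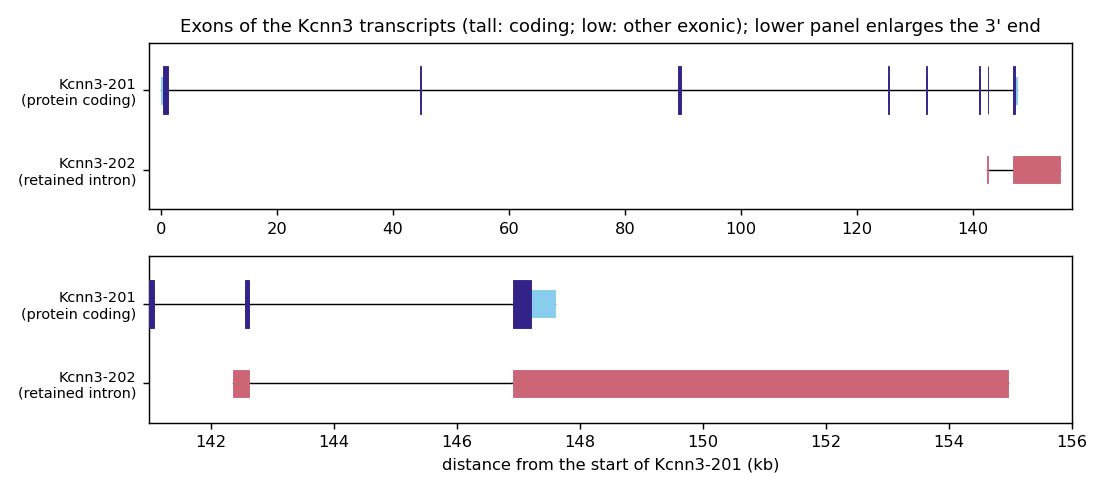
Exons of the 2 annotated Kcnn3 transcripts against the distance in kb from the start of Kcnn3-201, with coding exons tall and other exonic sequence low; the lower panel enlarges the 3′ end. Kcnn3-202 covers the last exons of Kcnn3-201 and runs 7371 bases past its end.

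In TPM, most of the lower level of Kcnn2 on the denervated side lay in transcripts from a downstream start. Kcnn2 spans positions 45268860 to 45686024 on the plus strand of chromosome 18. Of its 8 measured transcripts, 5 begin near a downstream start and made up 88.3% of the Kcnn2 TPM, and 3 begin at the upstream start and made up 11.7%. The downstream group ranged from 1.82 to 4.88 TPM over the 9 sham samples and from 0.386 to 1.77 over the 9 denervated samples, without overlap. The upstream group ranged from 0.119 to 0.598 TPM in sham and from 0.0514 to 0.591 in denervated tissue, so with the days pooled the sides overlapped.

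The log2 difference of the downstream group was -1.62 ± 0.25 (SD, n = 3), -1.85 ± 0.69, and -1.24 ± 0.06 at the 3 days, and it was lower in 9 of 9 mice. The upstream group differed by -0.20 ± 0.59, -0.47 ± 0.22, and 0.02 ± 0.30. It was lower in 2 of 3 mice at day 1 and 3 of 3 at day 3, and higher in 2 of 3 at day 7. A decrease in the upstream group at day 3 is thus not excluded. A pseudocount of 0.5 is about as large as the upstream level itself, so these smaller values understate any change, and only a few reads lie behind them. Transcripts of the 2 groups share exons, except Kcnn2-204 of the upstream group, which ends at 45289824, before any downstream transcript begins. Kcnn2-204 made up 7.43% of the Kcnn2 TPM, against 11.7% for the whole upstream group. How the TPM is split between transcripts is an estimate by the authors' software. A further 2 annotated Kcnn2 transcripts were not used here.

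Kcnn2-203, with 62.8% of the Kcnn2 TPM, and Kcnn2-208, with 23.0%, are the main coding transcripts from the downstream start. Kcnn2-203 was lower on the denervated side in 9 of 9 mice, with log2 differences of -1.65 ± 0.10 (SD, n = 3), -1.43 ± 0.38, and -1.08 ± 0.41. Kcnn2-208 was lower in 8 of 9 mice. In the sham side of day 7 mouse 3, Kcnn2-208 was near 0 and Kcnn2-203 at its highest, 4.69 TPM, so the share of each is less certain than their sum. Kcnn2-204, a noncoding transcript from the upstream start, made up 7.43% and was above 0 in all 18 samples.

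Kcnn1-204, a coding transcript, made up 67.8% of the Kcnn1 TPM. Its mean was 1.22 TPM in sham and 0.881 in denervated tissue at day 1, 1.23 and 1.58 at day 3, and 1.57 and 1.32 at day 7, so it was lower on the denervated side at days 1 and 7 and higher at day 3. By mouse it was higher on the denervated side in 5 and lower in 4, with a mean log2 difference of -0.26, 0.25, and -0.18 at days 1, 3, and 7. The short coding model Kcnn1-203, of 338 bases, was lower in 8 of 9 mice and was above 0 in 8 sham and 2 denervated samples. On account of its length it rested on a median of 1 estimated read per sample. Its mean was 0.345 TPM in sham tissue at day 1, where it was listed at 0 in all 3 denervated samples, so part of the difference of Kcnn1 at that day rests on a short model with few reads.

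The Kcnn4 TPM came from Kcnn4-202, a coding transcript, with 45.7%, and from Kcnn4-205, a retained intron of 1 exon, with 27.0%. Kcnn4-204, another retained intron, was above 0 in 8 denervated and 2 sham samples. It rested on a median of 1 and at most 4 estimated reads per sample, so nothing is read from these counts. Kcnn4-203 was listed at 0 in all 18 samples. None of the 5 Kcnn4 transcripts was higher or lower on the denervated side in all 9 mice.

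**Figure D5:**
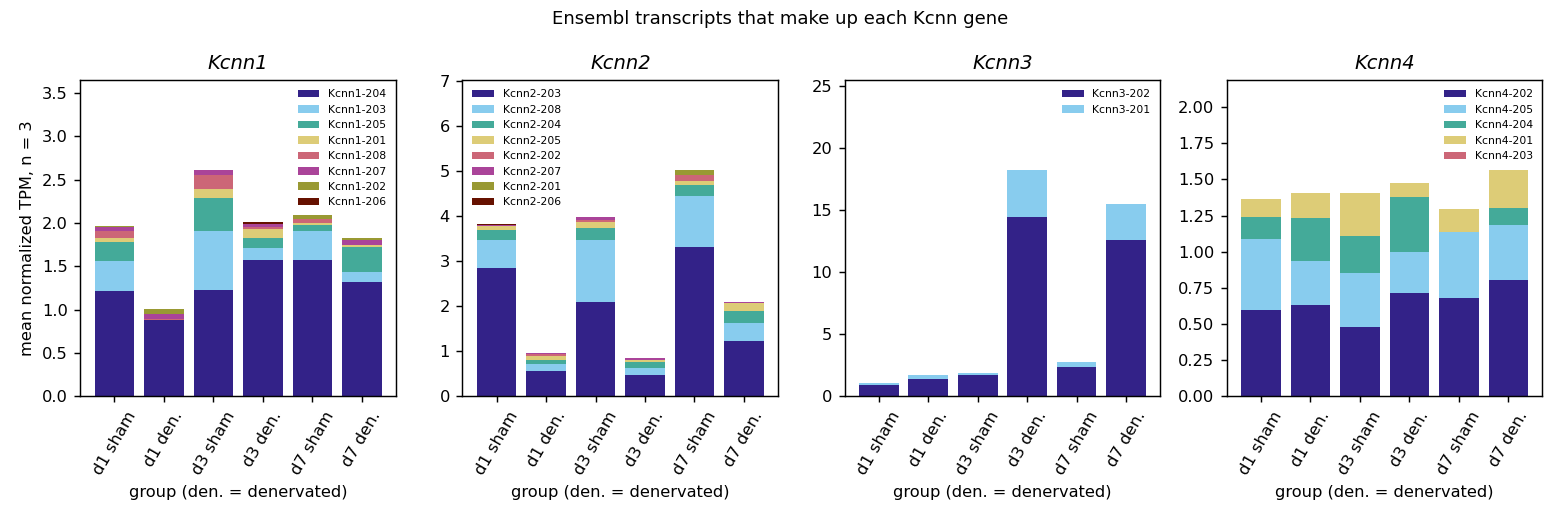
Mean normalized TPM (n = 3) of each group, stacked by Ensembl transcript, for the 4 Kcnn genes. Kcnn3-202, a retained intron, makes up most of the Kcnn3 columns, and Kcnn2-203 and Kcnn2-208 make up most of the Kcnn2 columns on the sham side.

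Kcnn4 is known from red blood cells and leukocytes, whose markers differed between sides in ways that changed with the day. The 5 macrophage and leukocyte markers had lower means on the denervated side in 5 of 5 genes at day 1 and in 3 of 5 at day 3, with median log2 differences of -0.25 and -0.03. All 5 macrophage and leukocyte markers were higher in every mouse at day 7, with a median log2 difference of 0.65, and their summed level was 31.1 to 62.8 TPM in sham and 60.7 to 101 in denervated tissue. The 5 erythrocyte markers had higher means on the denervated side at every day, with median log2 differences of 0.19, 0.60, and 1.49. Of these, 4 were higher in every mouse at day 3, and 0 at days 1 and 7. The denervated sample of day 7 mouse 1 reached 191365 TPM against 3965 to 63141 in sham tissue of that day. No marker of either list was at 0 in any sample. Kcnn4 of that mouse was lower on the denervated side, 1.19 against 1.72 TPM. In day 7 mice 2 and 3 it was higher there, 1.74 against 0.707 and 1.77 against 1.45 TPM. The part of these cells in the Kcnn4 level was not tested.

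Markers of satellite cells, the stem cells of muscle, had a higher summed level on the denervated side at all 3 days, including day 1, where the Kcnn3 values of the sides overlapped. The 4 markers summed to 1.51 to 7.28 TPM in sham and 16.2 to 26.7 in denervated tissue at day 1, 6.82 to 8.42 and 52.9 to 135 at day 3, and 9.51 to 15.7 and 29.7 to 36.3 at day 7. Most of this sum was Myod1, a regulator of muscle genes that denervated fibers are also known to express, with a log2 difference of 3.18, 3.88, and 1.49 at the 3 days. Cdh15, an adhesion protein of satellite cells and myoblasts, differed by -0.27, 2.24, and 0.99, and Myf5, a myogenic regulator, by 0.21, 0.47, and 0.34. Pax7, which defines quiescent satellite cells, differed by 0.05, 0.06, and 0.08 and did not exceed 0.285 TPM in any sample. The part of satellite cells in the Kcnn3 level was not tested.

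SK channels work in a complex with calmodulin, protein kinase CK2, and protein phosphatase 2A, and draw on calcium that enters or is released nearby. Of 44 genes of 6 such groups, 38 passed the filter on low values at each day (not the same 38 throughout). These were compared between sides because they were not used to choose the family. The lists were drawn up with earlier results of these data known, so the counts are descriptive and not independent support. In the limma comparison of day 1, 0 of 38 passed, and 2 had an unadjusted p under 0.05, against 634 of all 14776 genes. In that of day 3, 2 of 38 passed and both rose, against 1.45% of all genes. These were 1 of 3 calmodulin genes and 1 of 15 genes of calcium entry and release, while 0 of 6 kinase and phosphatase subunits, 0 of 5 scaffold genes, 0 of 3 other ion-activated potassium channels, and 0 of 6 regulators of Kcnn4 passed. In that of day 7, 0 of 38 passed, against 1.53% of all genes. An unadjusted p under 0.05 was found for 5 of 38 at day 7, against 1848 of all 15081 genes. At day 3 it was found for 7 of 38, against 2196 of all 14943 genes. Nothing is read from these unadjusted counts. The median log2 difference of the 38 genes was -0.07, 0.05, and 0.16, against 0.007, -0.015, and 0.039 over all genes tested.

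Stim1, the sensor of calcium in the sarcoplasmic reticulum, was 61.5, 55.2, and 57.0 TPM in sham and 86.8, 89.0, and 105 in denervated tissue at day 3. It rose by a log2 difference of 0.68 ± 0.10 (SE) with an adjusted limma p of 0.0392. With the mouse as a replicate block the adjusted p was 0.0667. At day 7 Stim1 was 73.9 ± 13.9 TPM (SD) in sham and 113 ± 5.44 in denervated tissue, with a log2 difference of 0.63 and an adjusted limma p of 0.134.

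Calm3, 1 of the 3 calmodulin genes, was 51.2, 66.8, and 56.2 TPM in sham and 90.4, 96.3, and 99.6 in denervated tissue at day 3. It rose by 0.72 ± 0.12 (SE) on the log2 scale with an adjusted limma p of 0.0468, and with the mouse as a replicate block the adjusted p was 0.0549. The 2 passing genes of day 3 were lost when any 1 replicate was left out. No partner gene passed a test of whether its difference between sides changed between days.

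Of the kinase and phosphatase subunits, Csnk2a2, a catalytic subunit of CK2, had the largest log2 difference, 0.67 at day 7. It was 42.8, 29.0, and 46.0 TPM in sham and 75.0, 42.8, and 72.0 in denervated tissue, so the sides overlapped although each mouse was higher on the denervated side. Its adjusted limma p was 0.388, and with the mouse as a replicate block 0.0491. Of the calcium entry and release genes, Cacng1, a subunit of the muscle calcium channel, had the largest difference, 1.44 at day 3, with 64.5 ± 34.2 TPM (SD) in sham and 160 ± 2.89 in denervated tissue and an adjusted limma p of 0.139. Of the scaffold genes it was Actn2, an actin-binding protein of the Z-disc, with -0.72 at day 3 and an adjusted limma p of 0.186.

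Of the other ion-activated potassium channels it was Kcnma1, the large-conductance BK channel, with -0.85 at day 1. It was 1.99, 3.43, and 3.34 TPM in sham and 1.94, 1.17, and 1.08 in denervated tissue, with an adjusted limma p of 0.999. Kcnma1 was thus measured at about the level of the Kcnn genes, and 2 of 3 mice were clearly lower. Of the regulators of Kcnn4 it was Nme2, a kinase that activates that channel, with 0.34 at day 3 and an adjusted limma p of 0.212.

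The genes whose pattern was most like that of each member were found by Pearson's r of log2(TPM + 0.5) over the 18 samples among 14756 genes. These samples are 9 mice with 2 sides each, and they share differences in side, day, and muscle content. For Kcnn3 they were Stbd1 (0.98), Akt2 (0.97), Myl12a (0.97), Pacsin2 (0.97), and Fgf13 (0.97), and the most opposed were Sun2 (-0.88) and Dlg3 (-0.86). For Kcnn2 they were Kcnj2 (0.93), Tigar (0.92), Asb18 (0.92), Lrrc14b (0.92), and Asb14 (0.92), and the most opposed were Tsr1 (-0.85) and Cited1 (-0.84). Kcnj2 encodes an inward-rectifier potassium channel of muscle, and Akt2 a kinase of the insulin pathway.

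Kcnn1 and Kcnn4 had no gene as close. For Kcnn1 the nearest included Nrxn2 (0.81), Rbm38 (0.81), Gimap8 (0.79), and Abhd14b (0.78), and the most opposed Chd9 (-0.82) and Tbc1d25 (-0.78). For Kcnn4 they were Grn (0.80), Slc2a6 (0.78), Shd (0.74), H2-DMb2 (0.73), and Mcm9 (0.73), and the most opposed Txlng (-0.77) and Mterf1a (-0.75). Between the members themselves r was -0.45 for Kcnn2 with Kcnn3 and 0.47 for Kcnn1 with Kcnn2, and the others lay between -0.10 and 0.21.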

How the data were processed

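Biopsies were sequenced after preparation with an Illumina TruSeq RNA kit, and the authors used kallisto 0.43.1 on mouse cDNA (GRCm38) and then sleuth. The deposited signal is TPM per transcript, normalized by the authors between samples, with sums from 833186 to 1143839. The tests had been set for plain TPM and were kept. Day 7 columns were matched to samples by their sequencer numbers. Transcripts were matched to GENCODE M21 by identifier (98.46%) and summed by gene.

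Genes that reached a TPM of 1 in 47% of samples or more were compared on log2(TPM + 0.5) with limma 3.58.1 in R 4.3.3, with a mean-variance trend, Benjamini-Hochberg adjustment, and a threshold of 0.05. Each day was fitted alone. Depth was estimated from low values of long transcripts, of which 72.4% to 86.7% lay within 0.1 of a whole read (20% if spread evenly), and it describes counting error only. The 2 sides of a mouse are paired by animal, and their residuals correlated by 0.13 to 0.51. The mouse was a block in an alternative. The tests were tried on simulated data.

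The members and gene lists were chosen with earlier results of these data known. Genes named were the members and their transcripts, partner genes that passed or had the largest difference of their list, and per member the 5 most and 2 least correlated genes. Some genes that the rule selects are not reported here. Marker genes were named beside a member. Alternatives changed the pseudocount, the TPM minimum, the scaling, the model, or the transcripts, or left out 1 replicate. Python 3.11.15 was used for the rest.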

Additional observations from a re-analysis of the deposited data

How the results depend on the processing

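The direction of Kcnn2 and Kcnn3 was kept at every day under the 27 alternatives run for each gene (9 at each day). That of Kcnn1 changed under 3 and that of Kcnn4 under 5. Kcnn2 was lower in every mouse, and Kcnn3 was higher in every mouse from day 3 on. In these cases changing the pseudocount or leaving out 1 replicate could not reverse the direction. The family was also chosen by these directions, so nothing is read from their being kept. At day 7 Kcnn2 was -1.22 with a pseudocount of 0.1, -0.96 with 1, and -0.93 rescaled to muscle markers. Kcnn3 was 2.43 and 2.12 with these pseudocounts, 2.18 from Kcnn3-202 alone, and 1.88 from protein-coding transcripts alone, an alternative chosen after the data were seen. The value of 1.88 is held down by the pseudocount of 0.5, which is above the sham level of Kcnn3-201. From Kcnn1-204 alone, Kcnn1 was -0.26 at day 1 and 0.25 at day 3. The pseudocount moves low genes by construction; the other causes were not tested. Without 1 replicate, Kcnn2 ranged from -2.10 to -1.05 and Kcnn3 from 0.27 to 3.25 over the days.

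The partner genes that passed at day 3 numbered 2, and 1 with a TPM above 0, 3 rescaled to muscle markers, 0 with no trend, 1 in a fit of all 18 samples, and 0 each time 1 replicate was left out. With the mouse as a replicate block, 0 passed at day 3 and 1 at day 7, and no other call changed. A TPM of at least 5 left no member to test across sham days. The adjusted p of Kcnn3 across sham days was 0.0794 to 0.994. With 3 mice at each day and the spread between them, small changes of Kcnn1 and Kcnn4 could not be resolved. The part of read depth in that spread was not tested.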

Other observations

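The cell types of the biopsies were described by lists of markers. Of the 5 endothelial markers none was higher or lower on the denervated side in all mice at days 1 and 3, and 1 was lower at day 7, with medians of the log2 difference of -0.09, 0.11, and -0.003. Smooth muscle markers were lower in every mouse for 3 of 4 genes at days 3 and 7, with medians of -0.33 and -0.51, and 1 of 4 at day 1 was higher in every mouse, with a median of -0.003. The 5 fibroblast markers had higher means on the denervated side in 5 of 5 genes at days 1 and 7 and lower means in 5 of 5 at day 3, with medians of 0.21, -0.11, and 0.53 at days 1, 3, and 7. At day 7, 3 of them were higher in every mouse. Of 4 keratinocyte markers, 3 were lower in every mouse at day 3. At day 7, 2 were higher and 1 was lower in every mouse. The medians were 0.10, -0.32, and 0.43.

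T cell markers had lower means in 5 of 5 genes at day 1 and 4 of 5 at day 3 and higher means in 5 of 5 at day 7, with medians of -0.41, -0.31, and 0.13. Schwann cell markers had lower means in 4 of 4 genes at day 1, and in 2 of 4 at days 3 and 7, with medians of -0.56, -0.09, and -0.32, and their summed level at day 7 was 302 to 562 TPM in sham and 223 to 243 in denervated tissue. The 4 neuron markers summed to 3.30 to 10.6 TPM in sham and 5.69 to 14.1 in denervated tissue over all days, with medians of -0.07, -0.14, and 0.13. Most of this sum was Tubb3, at 2.78 to 12.9 TPM, while Snap25, Syt1, and Rbfox3 did not exceed 0.828 TPM in any sample. The 8 skeletal muscle markers had medians of -0.15, -0.23, and 0.05. None of these differences was tested.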
